A study of Homo sapiens with 9 samples.

Results

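The genes described here are established transcriptional targets of p53, 33 genes listed by symbol from what is known of the pathway. They were not listed from these measurements, though earlier results of these data were known when the list was chosen. Of the 33, 29 were found under the listed symbol among the 14839 genes with values, and TIGAR was found under its older symbol C12orf5, which gave 30 genes. TNFRSF10A, TP53INP1, and SPATA18 had no row and were not analysed here. Their mRNA levels come from polyA RNA sequencing of MP41, an established uveal melanoma (UM) cell line grown in RPMI-1640 with fetal bovine serum. Cells received synthetic miR-16 or miR-CTR, a control mimic, each at 66 nM with Lipofectamine RNAiMAX, and were collected 6, 12, 24, and 48 h later. A miR-CTR library from cells collected before transfection served as 0 h. This gave 9 libraries, 1 for each condition, all from the same line, so no condition has a replicate and how much separate cultures vary is unknown.

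p53 is a transcription factor whose protein is kept scarce by MDM2, a ubiquitin ligase that p53 itself switches on. DNA damage, ribosomal stress, or oncogene signalling releases p53 from MDM2, and p53 then activates genes that stop the cell cycle, repair DNA, change metabolism, or promote cell death, as well as its own inhibitors. Since p53 is governed mainly at the protein level, the mRNAs of its targets are commonly read together as a measure of its activity.

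The mature sequence of miR-16 is shown with its seed (bases 2 to 8) in capitals, since the sites searched in these genes are matches to the seed. In RefSeq (GRCh38.p14) it is encoded at chr3:160404754-160404775 on the forward strand and chr13:50049027-50049048 on the reverse strand. The control sequence shown with it is taken from the list of oligonucleotides of the study. Its label there appears exchanged with that of miR-16, and that the transfected miR-CTR carries it is an assumption.
miR-16: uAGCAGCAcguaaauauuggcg
control sequence: uUGUACUAcacaaaaguacug

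Sites for the seed of miR-16 (8mer TGCTGCTA, 7mer-m8 TGCTGCT, or 7mer-A1 GCTGCTA, where the 8mer contains both 7mers) were searched on the coding strand of the longest annotated 3′UTR in GENCODE version 29. At least 1 site was found in 12 of the 30 p53 targets (40.0%), against 29.2% of 11573 genes with a 3′UTR. The 8mer was present in 4 of them (13.3%, against 4.96%), namely PPM1D, ZMAT3, SESN1, and DRAM1. The 3′UTRs of the p53 targets had a median length of 1698 bases, against 1420 for all these genes. The sites of the 4 genes are printed because 2 of these genes, PPM1D and DRAM1, passed the threshold for a late difference in opposite directions. Capitals mark the 8mer, on the strand of the gene in GRCh38.
PPM1D (chr17:60664364-60664387, forward strand): tcaataacagatggTGCTGCTAat
DRAM1 (chr12:101921935-101921958, forward strand): gcaccttttgctctTGCTGCTAat
ZMAT3 (chr3:179022542-179022565, reverse strand): taggttattcatttTGCTGCTAaa
SESN1 (chr6:108987133-108987156, reverse strand): ttagaagatcttggTGCTGCTAtt

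The values of the 30 genes were normalized log2 values, and the logFC at a time was the miR-16 value minus the miR-CTR value of that time. The early logFC averages 6 and 12 h and the late logFC averages 24 and 48 h. A gene counted as higher or lower when its logFC was past 0.5 in size, the size the study used. The libraries held between 20270000 and 27370000 recovered reads, and each p53 target had between 169 reads (PLK3) and 35837 reads (GDF15) in a library. None of the 30 genes lay in the lowest 25% of expression, and 26 of them were above the median gene at 0 h. Standard errors (SE) and 95% intervals come from these reads and cover counting error only. All 8 melanocytic markers were present in every library, such as PMEL between 16.54 and 17.47, as were COL1A1 (8.04 to 8.86), PDGFRB (3.52 to 5.6), and CD68 (5.46 to 5.86), 3 of 11 markers listed for fibroblasts, leukocytes, and epithelium. PDGFRB moved with the mimic, from 3.52 and 3.60 with miR-CTR to 5.11 and 5.60 with miR-16 at 24 and 48 h. The part of other cells in the results was not tested.

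In the late window, DRAM1, CYFIP2, and FAS were higher with miR-16 than with miR-CTR and PPM1D was lower, while the other 26 p53 targets, including CDKN1A and MDM2, stayed within the threshold. The 3 higher genes were 10.0% of the 30, against 7.76% of all genes, and the 1 lower gene was 3.33%, against 5.73% of all genes. These shares lay near the background of all genes. Among the 11130 genes left without the lowest 25% of expression, where none of the 30 lay, 3.96% were higher and 4.81% lower. Whether the 30 differ from those genes was not tested. The median late logFC of the 30 genes was 0.057 (all genes 0.005), with a range from -0.53 to 0.97, 19 positive and 11 negative. A late logFC within 0.25 of 0 was seen for 17 of the 30 (56.7%, against 61.3% of all genes). In bulk RNA, fewer cells with a transcript and less of it per cell cannot be told apart.

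In the early window, none of the 30 genes passed 0.5 in either direction, against 2.04% of all genes above and 1.45% below. The median early logFC was -0.075 (all genes 0.0), with 10 positive and 20 negative values. At 6 h alone none passed it, with a background of 3.38% above and 3.34% below. At 12 h, 2 of the 30 (6.67%, against 2.53% of all genes) were lower with miR-16, namely CDKN1A (-0.53, SE 0.026) and PLK3 (-0.51, SE 0.115). None was higher, against 3.31% of all genes. At 24 h, DRAM1 alone was higher (3.33%, against 7.24%) and none was lower (background 5.26%). At 48 h, DRAM1, CYFIP2, and FAS were higher (10.0%, against 10.4%) and PPM1D was lower (3.33%, against 8.96%).

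**Figure D1:**
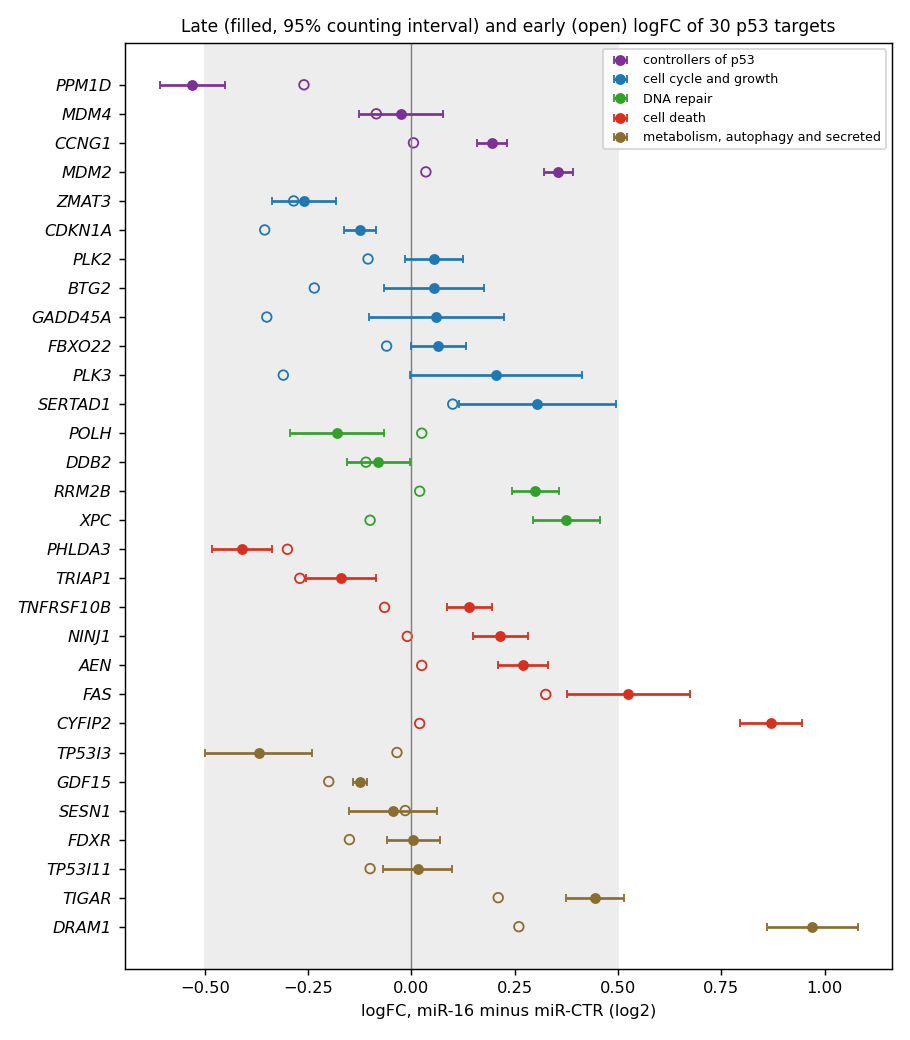
Late logFC (filled points, with the 95% counting interval) and early logFC (open points) of the 30 p53 targets, miR-16 minus miR-CTR in log2 units, grouped by role and coloured by it. The grey band spans 0.5 in size. DRAM1, CYFIP2, and FAS lie above it and PPM1D lies below it.

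The logFC had the same direction at all 4 times for few of the genes. FAS, TIGAR, and DRAM1 were higher with miR-16 at each time, 10.0% of the 30 against 17.7% of all genes. PPM1D, ZMAT3, PHLDA3, and TRIAP1 were lower at each time, 13.3% against 16.7%. In a test added after seeing the data, of miR-16 against miR-CTR with the time point as a block, these same 7 genes passed an adjusted p of 0.05 (limma, Benjamini-Hochberg over all 14839 genes). The 4 times take the place of replicates there, so the p-values measure how much a difference varied over time and not between cultures. The 3 higher genes were 10.0% of the 30, against 4.93% of all genes, and the 4 lower genes were 13.3%, against 5.73%. Over the 4 times, the mean logFC was 0.615 for DRAM1 (limma adjusted p = 0.0217), 0.425 for FAS (limma adjusted p = 0.0186), and -0.395 for PPM1D (limma adjusted p = 0.0118). It was 0.445 for CYFIP2, which did not pass (limma adjusted p = 0.119). The calls depended on single times. Without 12 h or without 24 h none of the 30 passed in limma, with 13 and 7 at an unadjusted p under 0.05. These were 43.3% and 23.3% of the 30, against 26.6% and 16.8% of all genes. Few of all genes passed there either, 196 higher and 185 lower without 12 h and 0 without 24 h. Over 24 and 48 h alone none of the 14839 genes passed, with 31.4% of them and 43.3% of the 30 at an unadjusted p under 0.05. Counting error alone was smaller than most of the late differences. The 95% counting interval of the late logFC lay above 0 for 12 genes, below 0 for 9, and held 0 for the other 9, with SEs between 0.00883 and 0.106. The same shares over all genes were not counted, so whether these counts are particular to the 30 is not known.

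**Figure D2:**
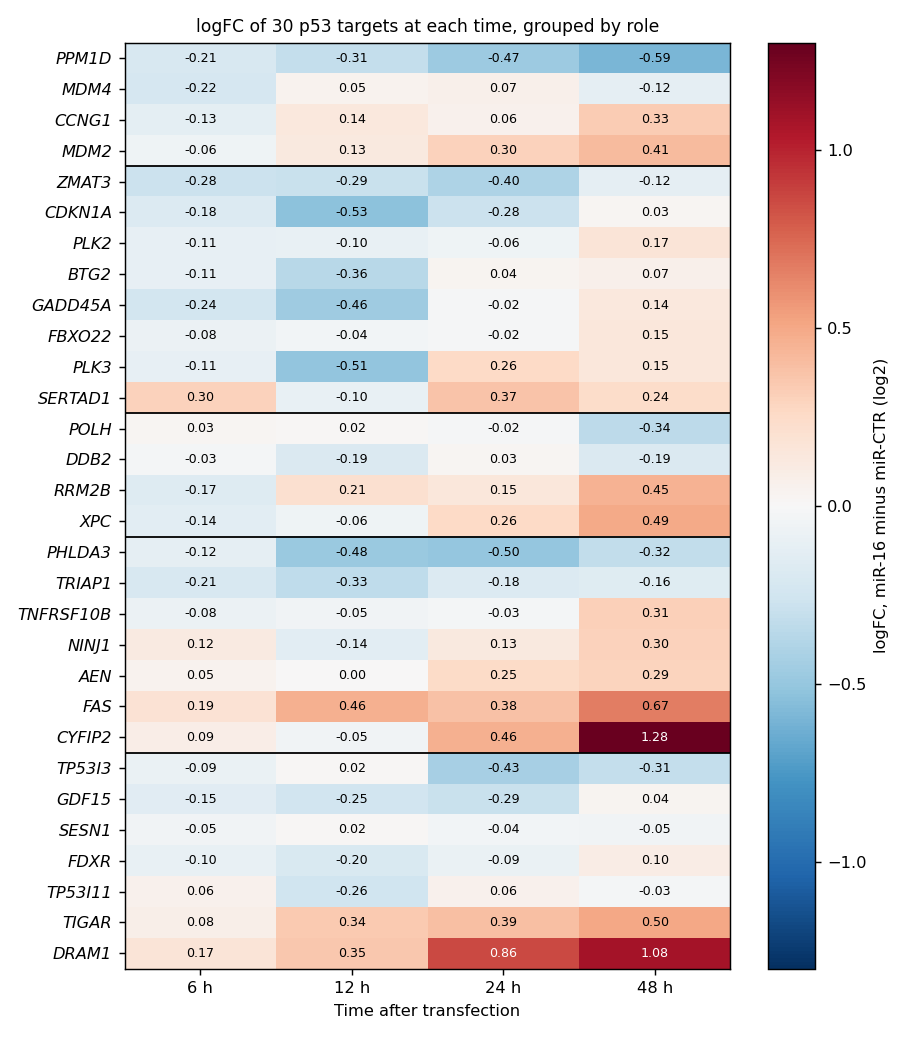
logFC of the 30 p53 targets (rows, grouped by role) at 6, 12, 24, and 48 h (columns), in log2 units, red for higher and blue for lower with miR-16. All 8 genes of cell cycle and growth are negative at 12 h, as are 7144 of all 14839 genes. The largest value of the map is that of CYFIP2 at 48 h (1.28).

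Among the p53 targets that act back on p53, PPM1D was lower with miR-16 and MDM2, MDM4, and CCNG1 did not pass the threshold. PPM1D (chr17:60600183-60666280) encodes WIP1, a phosphatase that dephosphorylates p53 and the kinases upstream of it. Its value was 10.46 at 0 h. With miR-CTR it was 10.42, 10.62, 10.48, and 10.75 at 6, 12, 24, and 48 h, and with miR-16 it was 10.21, 10.31, 10.01, and 10.16. All 4 miR-16 values were below all 4 miR-CTR values. The logFC was -0.21 at 6 h and -0.59 at 48 h. The late logFC was -0.53 (SE 0.0406), a 1.44-fold lower level, and after quantile normalization it was -0.491, within the threshold. Since 0 h, the late mean of PPM1D stood at -0.375 with miR-16 and at 0.155 with miR-CTR. Its miR-16 8mer lies at bases 826 to 833 of a 2728-base 3′UTR.

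MDM2 (chr12:68808176-68850686), the ubiquitin ligase that degrades p53, was at 13.25 at 0 h. With miR-CTR its values were 13.12, 12.97, 12.61, and 12.37 at the 4 times, and with miR-16 they were 13.06, 13.10, 12.91, and 12.78. Both series thus ended below 0 h, the miR-CTR series further than the miR-16 series. The late logFC was 0.355 (SE 0.0179). MDM2 shares 133 exon bases with CPM on the opposite strand (late logFC -0.465), and whether reads were counted by strand is not given in the sources used here. MDM4, the relative of MDM2 that blocks p53 at its target genes, had a late logFC of -0.025 (SE 0.0522). CCNG1, a cyclin that brings a phosphatase to MDM2, had one of 0.195 (SE 0.018).

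The 8 genes of cell cycle and growth did not pass 0.5 in the early or the late window, and their early values were mostly negative. The median early logFC was -0.26 and 7 of the 8 were negative, and at 12 h all 8 were negative with a median of -0.325. In the late window the median was 0.057. CDKN1A (chr6:36676460-36687339) encodes p21, which inhibits cyclin-dependent kinases. Its value was 12.30 at 0 h, then 12.49, 12.78, 12.45, and 12.39 in the miR-CTR series and 12.31, 12.25, 12.17, and 12.42 in the miR-16 series. The miR-CTR series was highest at 12 h, and the miR-16 series stayed near 0 h, so that the logFC was -0.18, -0.53, -0.28, and 0.03 at the 4 times. The early logFC was -0.355 (SE 0.0193) and the late logFC was -0.125 (SE 0.02). CDKN1A holds a 7mer-m8 site for miR-16 at bases 804 to 810 of its 3′UTR.

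GADD45A, which acts in growth arrest and DNA repair, had values of 7.90 at 0 h, of 8.46, 8.77, 8.20, and 8.20 with miR-CTR, and of 8.22, 8.31, 8.18, and 8.34 with miR-16. It was above 0 h in all 8 transfected libraries, and most so with miR-CTR at 12 h. Its early logFC was -0.35 (SE 0.0777) and its late logFC was 0.06 (SE 0.0832). PLK3, a stress-responsive polo-like kinase, had an early logFC of -0.31 (SE 0.083) and a late logFC of 0.205 (SE 0.106), and PLK2, its close relative, had -0.105 and 0.055. BTG2, an antiproliferative cofactor of mRNA deadenylation, stood at -0.235 early and 0.055 late, with 2 sites for miR-16 in its 3′UTR. SERTAD1, a regulator of CDK4, had 0.1 and 0.305 (late SE 0.0964). ZMAT3, an RNA-binding zinc finger protein with a miR-16 8mer and a 7mer-m8, had -0.285 and -0.26 (late SE 0.0399). FBXO22, a subunit of a ubiquitin ligase, had -0.06 and 0.065. It shares 1917 exon bases with NRG4 on the opposite strand, which had a late logFC of -1.61 and a value of 4.30 at 0 h.

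None of the 4 DNA repair genes passed the threshold in either window, with a median late logFC of 0.11. XPC, which recognizes damaged DNA for nucleotide excision repair, had the largest late value of them, 0.375 (SE 0.0412), after an early value of -0.10 (SE 0.0441). Its values were 9.99 at 0 h, 10.11, 10.10, 10.11, and 10.05 under miR-CTR, and 9.97, 10.04, 10.37, and 10.54 under miR-16. The miR-CTR series was thus nearly flat, and the last 2 miR-16 values were the highest of the 9. XPC shares 318 exon bases with LSM3 on the opposite strand, whose late logFC was 0.41. RRM2B, the p53-inducible subunit of ribonucleotide reductase, had a late logFC of 0.30 (SE 0.0288). DDB2, which binds ultraviolet lesions, had -0.08 (SE 0.0388), and POLH, the translesion polymerase eta, had -0.18 (SE 0.0581). POLH shares 4 exon bases with GTPBP2 on the opposite strand (late logFC -0.255).

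The cell death genes moved apart, with FAS and CYFIP2 higher with miR-16 in the late window and PHLDA3 the lowest. Of 7 genes, 2 were above 0.5 (28.6%, against 7.76% of all genes) and none below (background 5.73%), and the median late logFC was 0.215. FAS (chr10:88990582-89015785) encodes a death receptor of the tumour necrosis factor receptor family. It was at 9.11 at 0 h, at 8.94, 8.81, 8.44, and 8.05 with miR-CTR, and at 9.13, 9.27, 8.82, and 8.72 with miR-16. The miR-CTR value was lower at each later time, and the miR-16 value was above the miR-CTR value at all 4 times but ended below 0 h. The late logFC was 0.525 (SE 0.0758), a 1.44-fold higher level, and its 95% counting interval from 0.38 to 0.67 reached below the threshold. Relative to 0 h, FAS stood at -0.865 with miR-CTR and -0.34 with miR-16. FAS shares 380 exon bases with ACTA2 on the opposite strand (late logFC 0.25). It has no match to the miR-16 seed in its 1335-base 3′UTR.

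CYFIP2 (chr5:157266079-157395595), a p53-inducible component of the WAVE actin-regulating complex, had the largest logFC at any single time. It was at 10.47 at 0 h, at 10.30, 10.40, 10.32, and 9.87 with miR-CTR, and at 10.39, 10.35, 10.78, and 11.15 with miR-16. The series were alike until 12 h and then parted in both directions. The logFC was 0.09, -0.05, 0.46, and 1.28 at the 4 times, so that 24 h alone was within the threshold and the late logFC of 0.87 (SE 0.0381), 1.83-fold, rested mainly on 48 h, where the difference was 2.43-fold. Since 0 h, CYFIP2 stood at 0.495 with miR-16, the highest of the 30 genes, and at -0.375 with miR-CTR. It shares 62 exon bases with ADAM19 on the opposite strand, which had a late logFC of 0.635. Its 3′UTR holds no miR-16 match longer than a 6mer.

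PHLDA3 (chr1:201464383-201469237), a repressor of the survival kinase AKT, was at 11.05 at 0 h, at 10.92, 11.11, 10.87, and 10.73 with miR-CTR, and at 10.80, 10.63, 10.37, and 10.41 with miR-16. It was lower with miR-16 at all 4 times, with a late logFC of -0.41 (SE 0.037), and holds a 7mer-m8 site for miR-16. TRIAP1, a small protein that restrains apoptosis, was at -0.17 (SE 0.0431) and also lower at all 4 times. The other 3 genes had positive late values. AEN, a nuclease that digests DNA in apoptosis, was at 0.27 (SE 0.031), NINJ1, which ruptures the plasma membrane of dying cells, at 0.215 (SE 0.0341), and TNFRSF10B, a receptor for the death ligand TRAIL, at 0.14 (SE 0.0281). TNFRSF10B shares 67 exon bases with RHOBTB2 on the opposite strand (late logFC -0.285).

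DRAM1 had the highest late logFC of the 30 genes and led those of metabolism, autophagy, and secreted factors. DRAM1 (chr12:101877351-102012130) encodes a lysosomal membrane protein that takes part in autophagy. It was at 9.98 at 0 h, at 9.39, 9.52, 9.03, and 8.87 with miR-CTR, and at 9.56, 9.87, 9.89, and 9.95 with miR-16. All 4 miR-16 values were above all 4 miR-CTR values, yet none exceeded 0 h. The late logFC was 0.97 (SE 0.0559), a 1.96-fold higher level and the 98.7th percentile of all genes. In the late window, the miR-CTR series was the one that stood away from 0 h. Its late mean was -1.03 from 0 h, a 2.04-fold lower level, while the miR-16 mean was -0.06 from 0 h. Its miR-16 8mer lies at bases 689 to 696 of a 2363-base 3′UTR.

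The other genes of this group were within the threshold. TIGAR, a phosphatase that lowers the flow through glycolysis, was higher with miR-16 at all 4 times, with a late logFC of 0.445 (SE 0.0358). It stood at -0.48 since 0 h with miR-CTR and at -0.035 with miR-16. TP53I3 (chr2:24077433-24085861), a quinone oxidoreductase, was at 9.35 at 0 h, at 9.26, 9.32, 9.39, and 8.80 with miR-CTR, and at 9.17, 9.34, 8.96, and 8.49 with miR-16. Both series were lowest at 48 h, and the late logFC was -0.37 (SE 0.0666). TP53I3 shares 80 exon bases with FAM228B on the opposite strand (late logFC 0.08). GDF15, a secreted stress cytokine, was at -0.125 (SE 0.00883), within a range from 13.72 to 14.94 over the 9 libraries. SESN1, a sestrin that restrains mTORC1, was at -0.045, FDXR, a mitochondrial electron carrier reductase, at 0.005, and TP53I11 at 0.015.

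**Figure D3:**
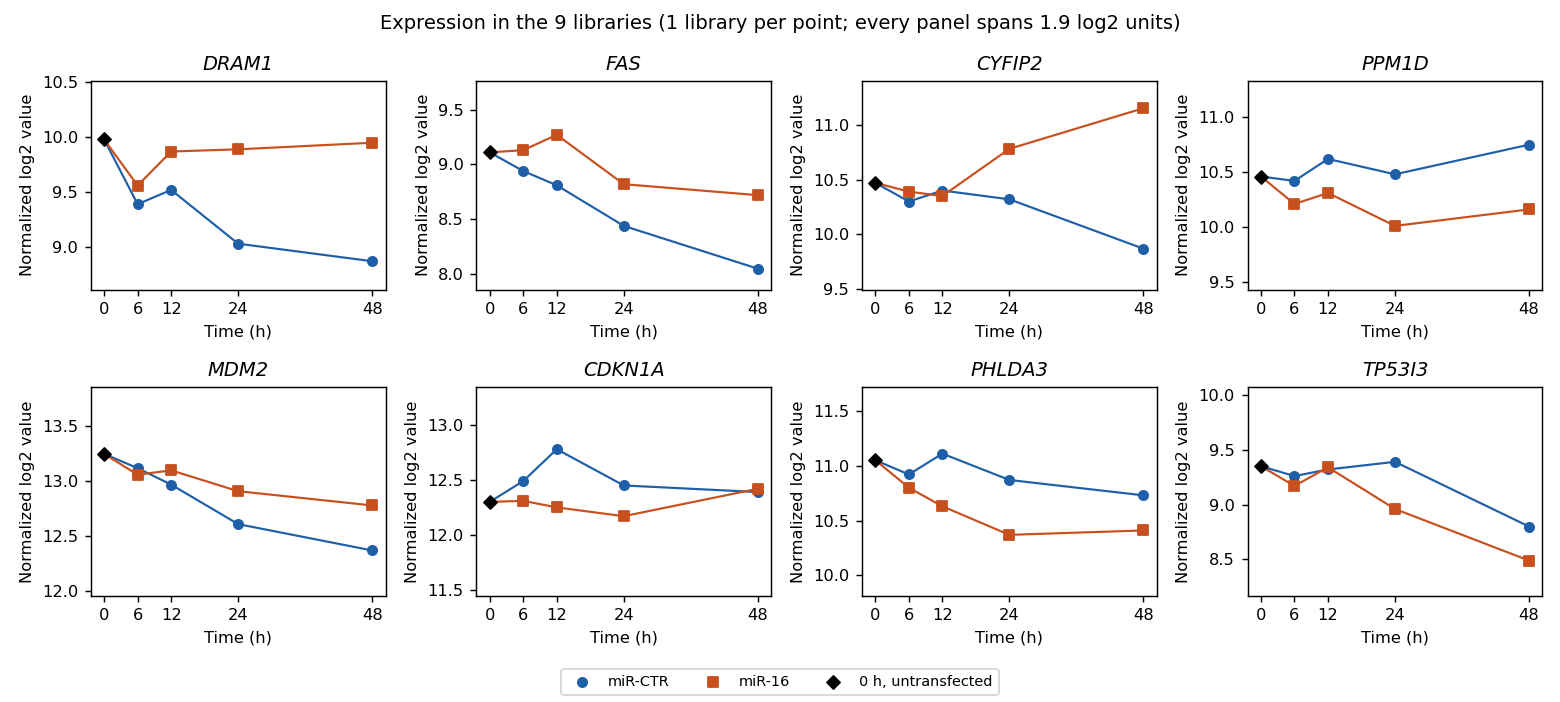
Normalized log2 values of DRAM1, FAS, CYFIP2, PPM1D, MDM2, CDKN1A, PHLDA3, and TP53I3 against time (h), 1 library per point, for miR-CTR (circles), miR-16 (squares), and 0 h (diamond). DRAM1 and FAS fall with miR-CTR to 8.87 and 8.05 at 48 h, while CYFIP2 reaches 11.15 with miR-16.

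Each mimic was also compared with the shared 0 h library. As there is no untransfected library after 0 h, the parts of culture time, transfection, and mimic in these changes cannot be told apart. With miR-CTR, none of the 30 genes was above 0.5 in the late window (11.0% of all genes were) and 6 were below -0.5 (20.0%, against 9.79% of all genes). They were DRAM1 (-1.03), FAS (-0.865), MDM2 (-0.76), SERTAD1 (-0.715), PLK3 (-0.685), and RRM2B (-0.545). With miR-16, none was above 0.5 (14.1% of all genes were) and 2 were below -0.5 (6.67%, against 11.7%), namely PHLDA3 (-0.66) and TP53I3 (-0.625). The first 6 genes stood at -0.06, -0.34, -0.405, -0.41, -0.48, and -0.245 with miR-16, in the order given, and PHLDA3 and TP53I3 stood at -0.25 and -0.255 with miR-CTR. As each set was picked for its low values with a mimic, values nearer to 0 h with the other mimic are favoured by the choice. The median of the 30 genes was -0.16 with miR-CTR and -0.09 with miR-16 (all genes 0.0 and -0.005). In the early window with miR-CTR, GADD45A was above 0.5 (0.715; 3.33%, against 3.08%) and DRAM1 was below -0.5 (-0.525; 3.33%, against 3.25%). With miR-16 none passed it, against 2.94% of all genes above and 3.05% below.

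**Figure D4:**
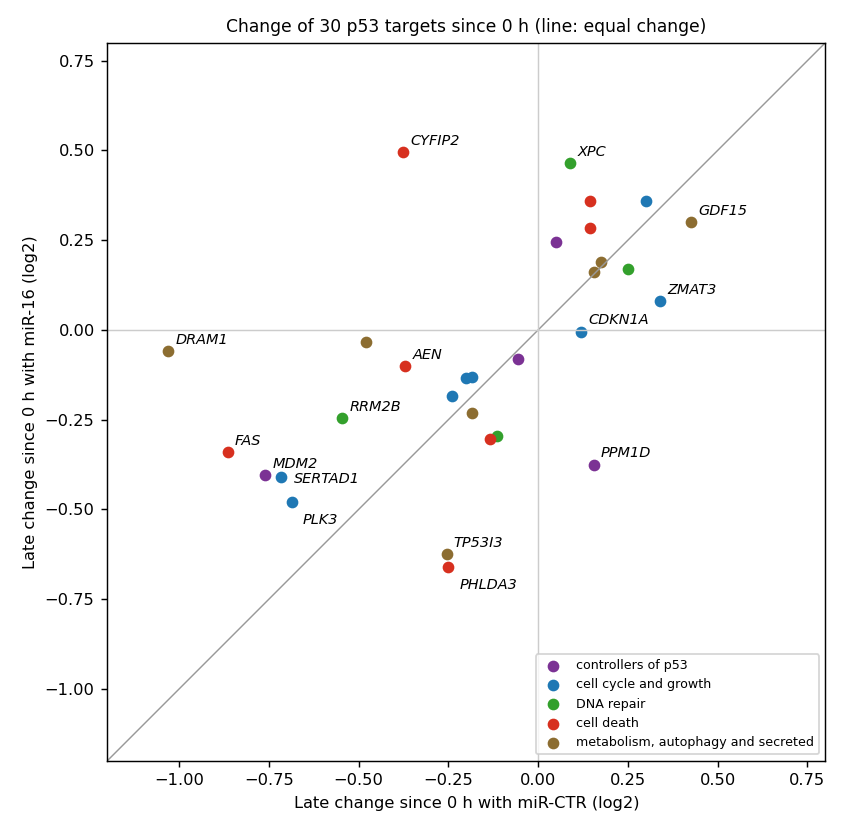
Late change since 0 h with miR-16 (vertical axis) against that with miR-CTR (horizontal axis), log2 units, 1 point for each of the 30 p53 targets, coloured by role. Both axes share the 0 h library, and the line marks equal change. DRAM1, FAS, MDM2, SERTAD1, PLK3, and RRM2B lie left of -0.5 and above the line, while PHLDA3 and TP53I3 lie below -0.5 on the vertical axis.

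The late logFC had a median of 0.015 over the 12 p53 targets with a miR-16 site and of 0.128 over the 18 without, against -0.085 and 0.015 over all genes. For the 8mer alone the medians were -0.152 with and 0.062 without, against -0.165 and 0.0 over all genes. Among the 12 genes, DRAM1 was above 0.5 and PPM1D below -0.5, and the 4 with an 8mer stood at 0.97 (DRAM1), -0.045 (SESN1), -0.26 (ZMAT3), and -0.53 (PPM1D). A match to the seed of the control sequence was found in 6 of the 30 genes (20.0%, against 14.7%), namely MDM2, MDM4, BTG2, SERTAD1, FAS, and SESN1. Of these, MDM4, BTG2, SERTAD1, and SESN1 also hold a miR-16 site, so the sets of genes with each kind of site overlap. The median late logFC of the 6 was 0.18, against 0.057 for the others. Over all genes it was 0.045 with such a match and -0.02 without. Of the 6 genes, 1 (FAS) was above 0.5. The site of FAS, the only 8mer of the control sequence among them, is printed because FAS was among the genes that were lower since 0 h with miR-CTR. The part of these sites in the values was not tested.
FAS (chr10:89014766-89014789, forward strand): taatcagtgtatgtTAGTACAAat

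The p53 response element, a pair of adjoining decamers known by that name, was searched on both strands of the RefSeq promoters (GRCh38.p14, from 250 bases before to 50 bases after the start) with its 4 core C and G bases kept and with up to 3 mismatches at the other 16 positions. A promoter was matched for 25 of the 30 genes. With up to 3 mismatches, the element was found for 3 of the 25 (12.0%, against 1.01% of 9602 promoters), and with up to 2 for AEN only (4.0%, against 0.167%). The sites are printed to show the part of the group whose element lies near the start, with the core bases in capitals. The late logFC of these 3 genes was 0.27, 0.005, and -0.125. A match of letters is a description, and many p53 elements lie outside such a window.
AEN (chr15:88621306-88621325, forward strand): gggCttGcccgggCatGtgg
FDXR (chr17:74872996-74873015, reverse strand): gggCagGagcgggCttGccc
GDF15 (chr19:18386186-18386205, forward strand): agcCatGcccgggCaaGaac

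Among 23 controllers of p53 with values, 1 was above 0.5 in the late window (4.35%, against 7.76% of all genes) and 3 were below -0.5 (13.0%, against 5.73%), with a median late logFC of -0.045. The lower ones were RFWD2 (-0.81, SE 0.0469), the ubiquitin ligase COP1 that targets p53, CHEK1 (-0.575, SE 0.0373), a checkpoint kinase, and HIPK2 (-0.54, SE 0.0326), a kinase that phosphorylates p53. The higher one, PPP1R13L (0.55), an inhibitor of p53, had only 14 to 30 reads in a library and a counting interval from -0.07 to 1.17.

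Among 26 other established p53 targets with values, 1 was above 0.5 in the late window (3.85%, against 7.76% of all genes) and 3 were below -0.5 (11.5%, against 5.73%), with a median of -0.073. The lower genes were KITLG (-0.685, SE 0.0792), the ligand of the KIT receptor, PERP (-0.62, SE 0.0568), a membrane effector of apoptosis, and PMAIP1 (-0.505, SE 0.129), which encodes NOXA. The higher gene was TRIM22 (1.01, SE 0.307), with 14 to 42 reads in a library. Of 15 cell cycle genes known to be repressed through p53, p21, and the DREAM complex, none was above 0.5 and 6 were below -0.5 (40.0%, against 5.73% of all genes), with a median of -0.47. The count came mainly from 48 h, where 11 of the 15 were below -0.5 (73.3%, against 8.96%), and 1 was at 24 h (6.67%, against 5.26%). The lowest were CDC25A (-1.21), a phosphatase that activates cyclin-dependent kinases, CDK1 (-0.73), the mitotic kinase, and KIF23 (-0.645), a kinesin of cytokinesis. CDC25A was lower at every time, with -0.47, -0.83, -1.04, and -1.38 at 6, 12, 24, and 48 h. Several genes of this list are known miR-16 targets or vary with proliferation. The part of p53 in their values was not tested.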

How the data were processed

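PolyA RNA of MP41 cells was sequenced in 9 libraries. The authors deposited 1 table of normalized log2 values for 14839 genes, with decimal commas. FastQC, STAR 2.4.0a, featureCounts, Subread 1.5.0-p3, and the builds hg38 and GRCh38 are named in the submitters' processing notes. The annotation, the normalization, the strand setting, and the filter on low values are not given in the sources used here. Column time numbers were read as 0, 6, 12, 24, and 48 h in rising order.

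Low values, turned back to the linear scale with a pseudocount of 1 subtracted, were whole multiples of 1 step per library (100% of values up to 5, within 0.0051 on the log2 scale), from which reads and counting SEs were derived. Differences of log2 values were taken as deposited. As each condition has a single library, logFC values carry no p-value, except in a test added after seeing the data, limma 3.58.1 (R 4.3.3) on the log2 values with mimic and time as terms, a mean-variance trend, and Benjamini-Hochberg adjustment over all genes. The scripts were tested on simulated data. The p53 targets, the other gene lists, and the tests were chosen with earlier results of these data known. Named were CDKN1A, MDM2, MDM4, each p53 target past 0.5 early, late, or since 0 h, and the 3 highest and 3 lowest past 0.5 of the other lists, with the remaining targets by role. Some genes of the other lists are not reported here and were left out of their counts. All 9 values were given for targets past 0.5 late and for some chosen afterwards. Sites were searched in 3′UTRs of GENCODE version 29 on GRCh38 for 12976 symbols matched to 1 gene, and TIGAR was matched through RefSeq synonyms. Alternatives were other thresholds, scalings, pseudocounts, references, times, and site definitions. Tables were handled in Python 3.11.15 with numpy 2.4.6 and pandas 2.3.3, statistics with scipy 1.17.1, and figures with matplotlib 3.10.9.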

Additional observations from a re-analysis of the deposited data

Results flagged for a closer look

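PLK3, XPC, BTG2, and POLH were singled out because both early times had the opposite sign of both late times. How many of all genes show this pattern was not counted, so it is not known to be particular to the p53 targets. PLK3 was lower with miR-16 at 6 and 12 h (-0.11 and -0.51) and higher at 24 and 48 h (0.26 and 0.15), with a late minus early logFC of 0.515. XPC went the same way (-0.14 and -0.06, then 0.26 and 0.49), with a late minus early logFC of 0.475. BTG2 (-0.11 and -0.36, then 0.04 and 0.07) had a late minus early logFC of 0.29. POLH, in the other direction (0.03 and 0.02, then -0.02 and -0.34), had one of -0.205. Its values at 6, 12, and 24 h were smaller than their counting SEs (0.0746, 0.0706, and 0.0804). The 95% counting intervals of both windows lay off 0 for XPC, whereas the late interval of PLK3 reached 0 and that of BTG2 held 0 (-0.07 to 0.18). These differences between windows were not tested.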

How the results depend on the processing

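With 1 library per condition, the counts rest on single libraries, and counting intervals do not cover the spread between cultures. The labels give no replicate numbers, so the libraries were paired by time alone, and no replicate could be left out. The late count of higher p53 targets (3) became 0 with the 0 h library as the reference, 1 when both late times had to pass, and 1 at 24 h alone. The late count of lower targets (1) became 0 at a 1.5-fold threshold, 0 after quantile normalization, 2 with the 0 h reference, 0 with both times, and 0 at 24 h alone. The early count of lower targets (0) became 2 at 12 h alone. The median late logFC (0.057) became -0.09 with the 0 h reference and 0.145 at 48 h alone. With the 0 h reference, DRAM1 (-0.06), FAS (-0.34), MDM2 (-0.405), PLK3 (-0.48), SERTAD1 (-0.41), and RRM2B (-0.245) changed direction. So did TIGAR (-0.035), AEN (-0.10), BTG2 (-0.13), PLK2 (-0.185), and FBXO22 (-0.135). ZMAT3 (0.08), DDB2 (0.17), and GDF15 (0.30) changed from negative to positive. Targets with a miR-16 site were 4 when only an 8mer counted, and 18 with 6mers. Of the alternatives chosen after seeing the data, the limma test with time as a block gave 3 higher and 4 lower targets over all 4 times, 0 and 0 over 24 and 48 h (10 and 3 at an unadjusted p under 0.05), 5 and 3 without 6 h, 0 and 0 without 12 h, 0 and 0 without 24 h, and 3 and 6 without 48 h. Over all 14839 genes, limma gave 731 higher and 850 lower over all 4 times, and 0 and 0 over 24 and 48 h. It gave 1110 and 1291 without 6 h, and 196 and 185 without 12 h. Without 24 h it gave 0 and 0, and without 48 h 557 and 632. Quantile normalization gave 2 targets above 0.5 since 0 h with miR-16, in place of 0. Higher p53 controllers (1) were 0 after quantile normalization, after scaling to total reads, with a pseudocount of 8, or at 1.5-fold, and lower ones (3) were 1 at 1.5-fold. Other p53 targets above 0.5 (1) were 4 after quantile normalization, 2 after centring on the median gene, and 2 after scaling to total reads. The causes were not tested. Under the planned and added alternatives, the remaining 80 counts and medians kept within the limits set for them, 1.5 times for a count.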

Other observations

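Close paralogs of the p53 targets, listed after the values of the targets had been seen, gave another reading of the same gene families. Of 23 listed paralogs 21 had values, and their median late logFC was -0.22, with 2 above 0.5 (9.52%, against 7.76% of all genes) and 5 below -0.5 (23.8%, against 5.73%). PLK1 was also counted among the cell cycle genes repressed through DREAM, and SESN2 and TNFRSF10C among the other p53 targets. CYFIP1 and DRAM2, the relatives of CYFIP2 and DRAM1, had late values of -0.06 (SE 0.0225) and 0.03 (SE 0.0493). PPM1A and PPM1B, phosphatases related to PPM1D, stood at 0.06 (SE 0.0417) and -0.22 (SE 0.0459). GADD45B was at -1.165 (SE 0.0805), after an increase of 1.16 since 0 h with miR-CTR against -0.005 with miR-16, whereas GADD45A was at 0.06. SESN3 was at -0.75 (SE 0.0443), standing at 0.875 since 0 h with miR-CTR and 0.125 with miR-16, whereas SESN1 was at -0.045. RRM2, the S phase subunit of ribonucleotide reductase, was at -0.62 (SE 0.0246), whereas RRM2B was at 0.30. PLK4 (-0.705, SE 0.0519) and PLK1 (-0.515, SE 0.0344), relatives of PLK2 and PLK3, were the other paralogs below -0.5. PHLDA1 (0.56, SE 0.0154) and BTG1 (0.52, SE 0.0444) were those above 0.5.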
